A study of Mus musculus with 6 samples.

Results

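The genes described here are 56 transcription factors that build tissues other than the cerebellar granule cell lineage, such as heart, kidney, gut, limb, pituitary, forebrain and spinal cord. They were chosen by symbol as classic Polycomb targets, they fall into 10 protein families, and all 56 were found among the 24594 entries of the count table. Nuclear RNA was sequenced from sorted nuclei of the cerebellum of mice aged 7 months, in 6 libraries. The 3 WT libraries came from Ezh1(wt/wt);Neurod1-Cre animals and the 3 cKO libraries from Ezh1(cKO/cKO);Neurod1-Cre animals. Both groups thus carry Neurod1-Cre, whose driver gene Neurod1 is active in maturing granule neurons, and differ by the conditional Ezh1 allele. Nuclei were fixed and sorted by DNA content and by NeuN, an antigen of most neuronal nuclei, so nuclei outside the granule lineage could enter the gate. The labels do not say which exons were removed, in which cells Cre acted, or whether each library was 1 animal. The p-values therefore measure the spread between these libraries, which may in part be technical.

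Polycomb repressive complex 2 (PRC2) places methyl groups on lysine 27 of histone H3, and Ezh1 is the catalytic subunit that prevails in cells that have stopped dividing. In the embryo the mark covers promoters of lineage-determining transcription factors, many of them rich in CpG, and these genes stay off outside the lineage that needs them. Loss of the mark in other systems can let such genes become active out of place, which makes them the usual place to look after PRC2 is disturbed. The comparison of cKO with WT shows whether any of these factors was at another level in the sorted nuclei of animals with the altered Ezh1 allele. It cannot show in which cells, because nuclei outside the granule lineage could enter the gate.

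Of the 56 factors, 4 had no count in any library and 32 had 10 or fewer counts in all 6 libraries together. Only 11 had enough counts to be tested: Pax3, Tbx2, Tbx18, Foxc1, Foxd1, Nkx2-2, Irx1, Irx2, Irx3, Irx5 and Msx2. Of these 11, 0 were called by edgeR in either direction, where 0.082% of tested genes at a like level (a mean below 10 CPM, counts scaled to a library of 1000000) were called. Of the factors silent in WT, 0 reached a set level in every cKO library, as did 0 (0%) of all entries silent in WT, so both counts are those of the background. The smallest p-values belonged to Foxd1 and Foxc1, forkhead factors of mesenchyme that were lower in each cKO library than in any WT library, and neither passed the test. The promoters of the factors that the results turn on are shown first.

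Promoter windows of 300 bases, 250 before and 50 after the annotated start, were taken from RefSeq on GRCm38.p6, the assembly behind mm10. The table held a window for 41 of the 56 factors. Capitals mark CpG sites, the dinucleotide CG, which reads the same on both strands. The first 3 windows are those of the tested factors with the smallest p-values among those that had a window, Foxd1 (chr13:98353995-98354294, plus strand), Foxc1 (chr13:31806396-31806695, plus strand) and Nkx2-2 (chr2:147186353-147186652, minus strand). The next 3 belong to factors with no count in any library, Foxd3 (chr4:99656049-99656348, plus strand), Hand2 (chr8:57320733-57321032, plus strand) and Lhx8 (chr3:154330511-154330810, minus strand).
Foxd1: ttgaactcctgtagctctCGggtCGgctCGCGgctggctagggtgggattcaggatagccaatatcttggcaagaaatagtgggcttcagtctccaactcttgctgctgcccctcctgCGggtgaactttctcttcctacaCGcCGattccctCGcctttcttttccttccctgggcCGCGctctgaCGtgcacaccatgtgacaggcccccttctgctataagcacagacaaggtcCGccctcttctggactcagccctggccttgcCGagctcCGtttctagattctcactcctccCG
Foxc1: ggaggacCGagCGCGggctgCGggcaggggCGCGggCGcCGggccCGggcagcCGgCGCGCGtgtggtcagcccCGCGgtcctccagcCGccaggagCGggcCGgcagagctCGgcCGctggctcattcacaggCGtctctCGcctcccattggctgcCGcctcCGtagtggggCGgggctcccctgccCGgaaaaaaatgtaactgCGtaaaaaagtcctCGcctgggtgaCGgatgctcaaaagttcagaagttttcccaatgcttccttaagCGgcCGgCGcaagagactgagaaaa
Nkx2-2: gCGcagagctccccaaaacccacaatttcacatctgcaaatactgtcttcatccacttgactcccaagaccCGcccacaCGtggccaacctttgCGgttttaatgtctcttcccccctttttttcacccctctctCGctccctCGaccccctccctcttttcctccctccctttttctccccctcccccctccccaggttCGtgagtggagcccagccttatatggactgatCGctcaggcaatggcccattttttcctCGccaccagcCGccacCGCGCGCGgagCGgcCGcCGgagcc
Foxd3: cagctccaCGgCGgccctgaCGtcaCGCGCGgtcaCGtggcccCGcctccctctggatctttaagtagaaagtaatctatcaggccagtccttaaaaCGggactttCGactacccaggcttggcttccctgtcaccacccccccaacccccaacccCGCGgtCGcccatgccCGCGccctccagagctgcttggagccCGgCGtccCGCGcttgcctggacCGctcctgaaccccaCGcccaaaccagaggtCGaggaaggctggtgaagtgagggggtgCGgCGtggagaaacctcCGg
Hand2: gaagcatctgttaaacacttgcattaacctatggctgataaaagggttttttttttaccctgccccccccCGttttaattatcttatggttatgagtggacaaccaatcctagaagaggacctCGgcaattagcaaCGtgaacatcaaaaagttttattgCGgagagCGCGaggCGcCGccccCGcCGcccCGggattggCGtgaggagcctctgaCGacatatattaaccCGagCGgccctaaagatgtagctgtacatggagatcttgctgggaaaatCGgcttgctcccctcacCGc
Lhx8: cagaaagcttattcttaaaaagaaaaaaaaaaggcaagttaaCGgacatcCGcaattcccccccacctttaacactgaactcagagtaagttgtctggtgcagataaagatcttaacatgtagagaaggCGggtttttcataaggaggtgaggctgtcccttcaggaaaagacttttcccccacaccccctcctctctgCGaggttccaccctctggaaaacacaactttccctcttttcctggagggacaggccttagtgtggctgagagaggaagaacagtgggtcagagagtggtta

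The windows shown differ in CpG content without following the level of the gene. A relation between CpG content and level over all factors was not computed. Foxc1, the factor with the most counts, held 32 CpG sites, Nkx2-2 held 17 and Foxd1 held 15. Foxd3 and Hand2, both silent, held 25 and 17, whereas the silent Lhx8 held 4. Over the 41 factors with a window the median was 21 sites (4 to 37), and 36 of them (87.8%) held 10 or more. The same was true of 57.7% of the 18386 genes of the count table with a window, whose median was 13 sites. Tested genes as a whole had a median of 21 sites and untested genes of 4, while the 34 untested factors of the list had 21.5. The median of the 7 tested factors with a window was 17. At least 1 CpG site stood in 95.5% of all these windows. The untested factors thus had the CpG content of tested genes, at levels below the filter.

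The libraries held 6340236 to 8284768 counts, so that 3 counts, the limit that a count of 0 allows, stand for 0.364 to 0.463 CPM in a single library. Over the 3 cKO libraries together this limit is 0.152 CPM, and over the 3 WT libraries 0.135 CPM. Such limits cover counting error only. Ezh1 was at 71.0, 75.6 and 83.3 CPM in WT and at 52.5, 50.9 and 55.6 CPM in cKO (log2 fold change -0.53, SE 0.10, edgeR adjusted p = 0.00672). It fell, and the libraries matched their labels in this respect, although counts over the whole gene include exons that were left in place. The 12 fixed granule cell markers were all detected and summed to 6426 to 6564 CPM in WT and 6000 to 7171 CPM in cKO. Markers of other cells were detected too, with sums of 270 to 465 CPM in WT and 327 to 725 CPM in cKO for 10 oligodendrocyte genes, so RNA of other cells was present.

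**Figure D1:**
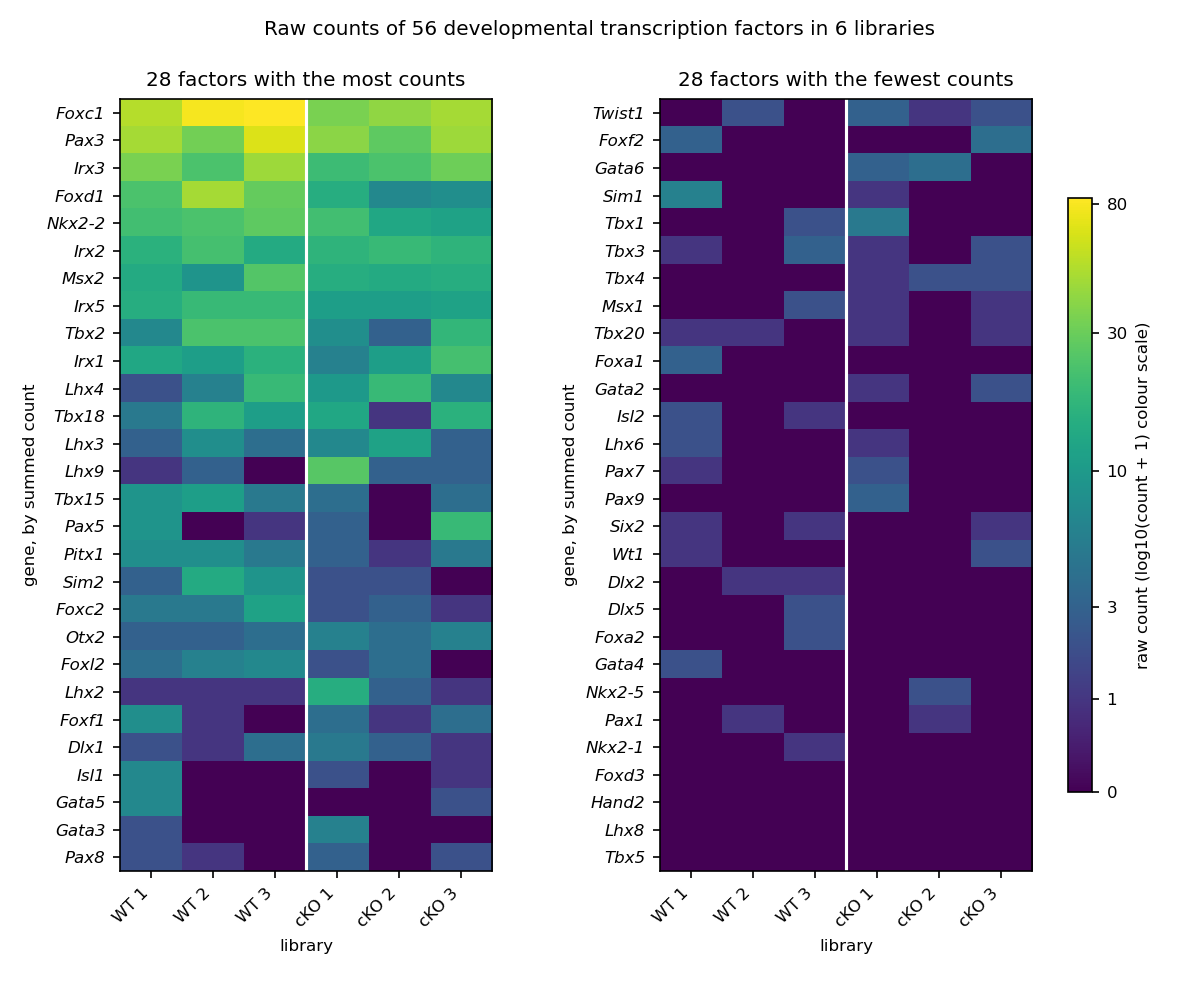
Raw counts of the 56 factors in each of the 6 libraries, as colour on a log scale; rows are genes ordered by their summed count, columns are the 3 WT and 3 cKO libraries, and the white line parts the genotypes. Counts fill the upper rows of the left panel in every library, while the right panel is mostly empty and its last 4 genes had no count at all.

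As a group the factors were far below the transcription factors of the granule lineage. Per kilobase of exon, the median of the 56 was 0.0569 CPM (WT) and 0.0882 CPM (cKO). The median of 15 granule lineage factors, among them Zic1, Pax6 and Neurod1, was 23.0 CPM per kilobase in WT and 20.3 in cKO. On this per-length scale the highest of the 56 in WT were Pax3 (1.67), Foxc1 (1.65) and Irx3 (1.64) followed by Nkx2-2 (1.28). The lowest granule lineage factor stood at 0.427 CPM per kilobase in WT and the highest at 73.4. That lowest level was below these 4 and also below Irx2 (0.912), Foxd1 (0.882), Msx2 (0.870), Irx5 (0.770), Irx1 (0.764) and Tbx2 (0.648). Exon lengths came from GENCODE M21, and whether reads in introns were counted is not given in the sources used here.

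Summed over all 56 factors, WT libraries reached 52.0, 52.5 and 53.8 CPM, against 46.2, 36.1 and 48.6 CPM for cKO. Every cKO library lay below every WT library, with means of 52.8 ± 0.91 CPM in WT and 43.7 ± 6.64 CPM in cKO (SD, n = 3 each), a ratio of 0.827. Most of this difference sat in 2 genes, which were picked after their values were seen. Leaving out genes picked as lower in cKO was bound to bring the sums closer. Foxc1 and Foxd1 together held 11.2, 17.4 and 13.7 CPM in WT against 7.05, 7.26 and 8.31 CPM in cKO. Without them the sum came to 40.8, 35.1 and 40.1 CPM in WT and 39.1, 28.9 and 40.3 CPM in cKO, where the genotypes overlapped (ratio 0.934). The 45 untested factors summed to 15.0, 10.2 and 10.4 CPM in WT and 17.7, 10.0 and 11.7 CPM in cKO, which also overlapped. These sums are descriptions and were given no test.

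Forkhead factors share a winged-helix DNA-binding domain. Foxc1 and its relative Foxc2 act in mesoderm, vessels and the meninges, the membranes around the brain, and Foxd1 is known for the stroma of the kidney and for pericyte precursors. Foxd1 (GRCm38.p6 chromosome 13, 98354245 to 98356705, as for all positions here) had 23, 46 and 29 counts in WT against 15, 7 and 8 in cKO. This is 3.48, 6.41 and 3.52 CPM against 2.16, 1.08 and 1.23 CPM. All WT libraries were above all cKO libraries, and WT replicate 2 was the highest by a wide margin. The log2 fold change was -1.56 (SE 0.42, 95% interval -2.43 to -0.70), and its edgeR adjusted p of 0.0881 missed the threshold. Foxd1 is the factor on which the setting mattered: it was called without WT replicate 1 (adjusted p = 0.0432) and without a filter on low counts (0.0260), and its adjusted p was 0.526 without WT replicate 2, the ends of the range over its alternatives being 0.0260 and 0.526. In those fits 0.992% and 0.634% of all tested genes were called lower.

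Foxc1 (chromosome 13, 31806646 to 31810635) was the most abundant of the 56 by counts, with 51, 79 and 84 in WT against 34, 40 and 46 in cKO. Its levels were 7.71, 11.0 and 10.2 CPM in WT and 4.89, 6.17 and 7.08 CPM in cKO. The genotypes did not overlap, but WT replicate 1 and cKO replicate 3 were close. The log2 fold change was -0.68 (SE 0.24, 95% interval -1.17 to -0.18, edgeR adjusted p = 0.233). Foxc2 was not tested and pointed the same way, with 5, 5 and 12 counts in WT against 2, 3 and 1 in cKO. The ovary and eyelid factor Foxl2 had 4, 6 and 7 counts in WT against 2, 4 and 0 in cKO, where WT replicate 1 and cKO replicate 2 overlapped in CPM. The remaining forkhead factors were near the limit of detection: Foxf1 had 9 counts in each genotype, Foxf2 had 3 in WT and 4 in cKO, and the endoderm factors Foxa1 and Foxa2 had 3 and 2 counts in WT and none in cKO. Foxd3, a neural crest factor, had none. In sum the 9 forkhead factors held 14.7, 19.1 and 16.3 CPM in WT and 8.20, 8.49 and 9.70 CPM in cKO.

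Markers of meningeal and perivascular fibroblasts, cells in which Foxc1 and Foxc2 are known to act, were measured in the same libraries. All 14 were detected, none was at 0, and their summed level was 50.6 to 68.9 CPM in WT and 38.0 to 54.5 CPM in cKO. Of the 8 that were tested, 7 had a negative log2 fold change (median -0.38) and none was called. The transporter gene Slc47a1, named after its values were seen, had 47, 30 and 18 counts in WT against 9, 10 and 3 in cKO (log2 fold change -1.99, edgeR adjusted p = 0.0627). By library the marker sum was 68.9, 66.7 and 50.6 CPM in WT and 41.2, 38.0 and 54.5 CPM in cKO, so WT replicate 3 lay below cKO replicate 3, whereas Foxc1 and Foxd1 were higher in WT replicate 3 than in any cKO library. The 16 markers of endothelium and mural cells summed to 44.2 to 56.3 CPM in WT and 44.8 to 53.0 CPM in cKO, with 0 of 6 tested called. In bulk nuclei, fewer cells of a type and less RNA per cell cannot be told apart. The part of these cells in the levels of Foxc1 and Foxd1 was not tested.

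**Figure D2:**
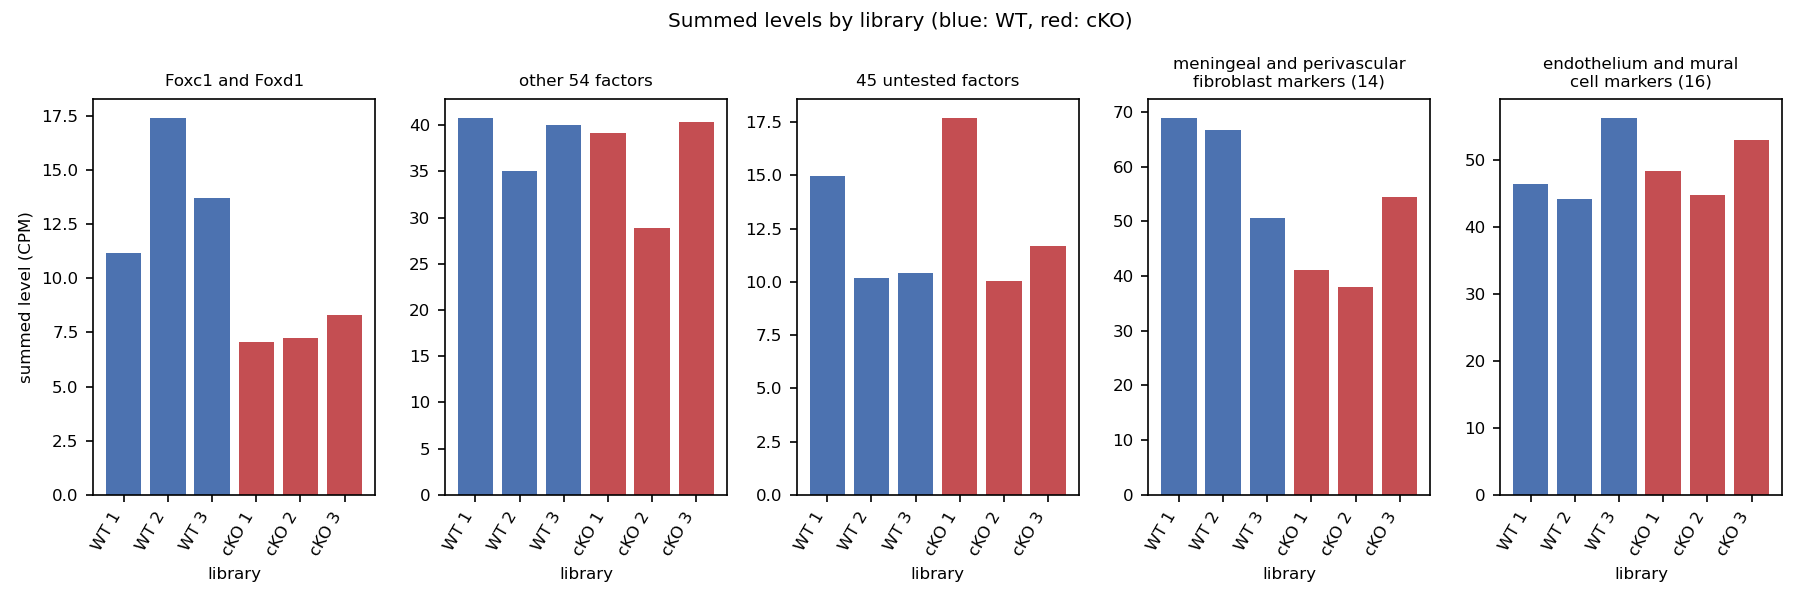
Summed levels in CPM for each library (bars; blue WT, red cKO) of Foxc1 with Foxd1, of the other 54 factors, of the 45 factors too low to be tested, and of 2 marker lists; each panel has its own scale from 0. Foxc1 with Foxd1, picked after their values were seen, is higher in each WT library (11.2 to 17.4 CPM) than in any cKO library (7.05 to 8.31 CPM). The other panels overlap.

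T-box factors shape heart, limb and mesenchyme. Tbx2 (chromosome 11, 85832615 to 85841948) had 7, 23 and 23 counts in WT against 8, 3 and 18 in cKO (1.06, 3.20 and 2.79 against 1.15, 0.463 and 2.77 CPM). The groups overlapped widely, and the log2 fold change of -0.70 had a 95% interval from -1.81 to 0.42 (edgeR adjusted p = 0.669). Single libraries set its size: it was -1.52 without cKO replicate 3 and -0.28 without cKO replicate 2. Tbx18 (chromosome 9, 87702800 to 87731260), a factor of mural cells and the epicardium, had 5, 17 and 11 counts in WT against 13, 1 and 16 in cKO, with a log2 fold change of 0.01 and an interval from -1.27 to 1.28. In both genes cKO replicate 2 was the lowest library. That library was also the lowest for the T-box family as a whole, at 0.926 CPM against 3.48 to 7.24 CPM in the other 5. Tbx15, which acts in skeleton and skin, was untested at 9, 11 and 5 counts in WT against 4, 0 and 4 in cKO, which overlapped in CPM. Tbx1, Tbx3 and Tbx20 had 4 to 7 counts each, the forelimb factor Tbx5 had none, and the hindlimb factor Tbx4 had none in WT and 1, 2 and 2 counts in cKO.

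Iroquois factors pattern the neural tube. All 4 described here were tested, and each had counts in every library. Irx3 (chromosome 8, 91798511 to 91801654) was at 5.14, 3.20 and 5.22 CPM in WT and 2.88, 3.55 and 4.77 CPM in cKO, and the groups overlapped (log2 fold change -0.28, 95% interval -0.97 to 0.41, edgeR adjusted p = 0.808). Irx5 (chromosome 8, 92357796 to 92361456) had 15, 19 and 19 counts in WT against 11, 11 and 12 in cKO, or 2.27, 2.65 and 2.31 against 1.58, 1.70 and 1.85 CPM. Its genotypes did not overlap, yet at these counts the log2 fold change of -0.49 had an interval from -1.39 to 0.41 (edgeR adjusted p = 0.718). Irx2 (chromosome 13, 72624430 to 72634196), which overlaps Gm20554, was at 2.42, 3.06 and 1.70 CPM in WT and 2.45, 2.93 and 2.62 CPM in cKO (log2 fold change 0.16, adjusted p = 0.921). Irx1 (chromosome 13, 71958232 to 71963723) was at 1.97, 1.53 and 1.94 CPM in WT and 0.864, 1.70 and 3.39 CPM in cKO. Its log2 fold change was 0.12 (95% interval -0.90 to 1.13, edgeR adjusted p = 0.955). The spread within cKO exceeded the difference between genotypes, and without cKO replicate 3 the log2 fold change was -0.50. The family sum averaged 11.1 ± 0.67 CPM in WT against 10.1 ± 2.43 CPM in cKO (SD, n = 3 each).

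Among Pax factors, which join a paired domain to roles in neural tube, muscle and kidney, Pax3 (chromosome 1, 78101267 to 78197136) alone was tested. It had 46, 32 and 66 counts in WT against 38, 27 and 43 in cKO, with overlapping levels of 6.95, 4.46 and 8.01 CPM against 5.47, 4.17 and 6.62 CPM. The log2 fold change was -0.26 with a 95% interval from -0.85 to 0.33, so the interval lay within 2-fold (edgeR adjusted p = 0.781). Pax5, a factor of the midbrain-hindbrain border and of B cells, had 9, 0 and 1 counts in WT against 3, 0 and 19 in cKO, which rests on 2 libraries. Pax1, Pax7, Pax8 and Pax9 had 2 to 8 counts each over all libraries.

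The homeodomain factor Nkx2-2 patterns the ventral neural tube and later acts in oligodendrocyte precursors. Located on chromosome 2 (147176485 to 147195434), it had 21, 23 and 27 counts in WT against 21, 13 and 12 in cKO, or 3.17, 3.20 and 3.28 against 3.02, 2.01 and 1.85 CPM. The WT libraries were nearly identical, and cKO replicate 1 was just below them. The log2 fold change was -0.48 with a 95% interval from -1.29 to 0.32 (edgeR adjusted p = 0.686). Nkx2-2 overlaps the noncoding genes Nkx2-2os and 6430503K07Rik, whose reads cannot be told apart from its own without strand. The 10 oligodendrocyte markers summed to 465, 402 and 270 CPM in WT and 420, 327 and 725 CPM in cKO, and the part of these cells in the level of Nkx2-2 was not tested. Nkx2-1, of thyroid, lung and forebrain, and Nkx2-5, of heart, had 1 and 2 counts in all. Msx2 (chromosome 13, 53466881 to 53472780), a factor of skull and limb that overlaps Gm33763, was at 2.12, 1.25 and 3.03 CPM in WT and 2.16, 2.16 and 2.31 CPM in cKO (log2 fold change 0.04, 95% interval -0.88 to 0.95).

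**Figure D3:**
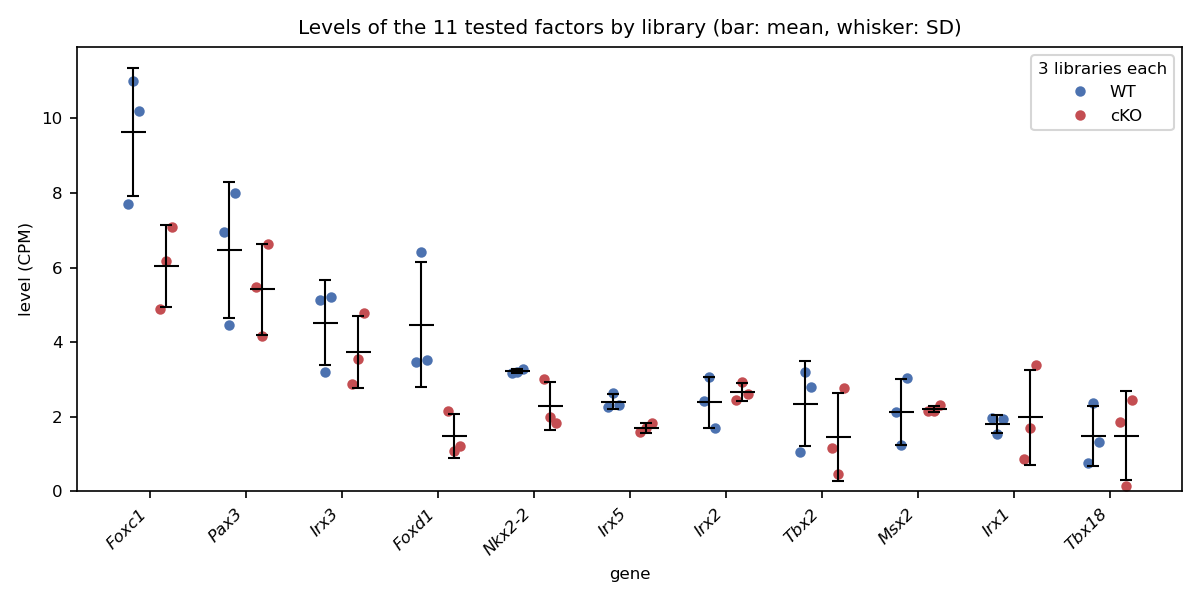
Levels in CPM of the 11 tested factors, with 1 point per library (blue WT, red cKO), a bar at the mean and whiskers of 1 SD. Foxc1, Foxd1, Nkx2-2 and Irx5 have every WT point above every cKO point, and the other 7 overlap.

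Read against all genes, these 11 factors gave no call. In edgeR 0 of 11 were called, where 0.328% of 13115 tested genes were called higher and 0.259% lower; among the 4880 tested genes with a mean below 10 CPM, where all 11 lie, 0.082% were called at all. DESeq2 gave none of the 11 an adjusted p because of their low level (it called 0.877% of genes), and limma-voom called 0 of 11 (0.32% of genes). At an unadjusted p below 0.05 there were 2 in edgeR, Foxd1 and Foxc1, where 7.42% of genes below 10 CPM stood.

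In 4 of the 11, Foxc1, Foxd1, Nkx2-2 and Irx5, every cKO library lay below every WT library. This held for 8.4% of all tested genes and for 6.78% of those below 10 CPM. The opposite order was seen in 0 of 11, and in 7.91% of tested genes. For a single gene with 3 libraries against 3, the exact two-sided permutation test gives p = 0.1 at best. Any gene whose genotypes do not overlap has this value, so for these 4 it adds nothing to the order of the libraries. Log2 fold changes were negative in 7 and positive in 4, with a median of -0.28, where the median of all tested genes was -0.01. The interval lay within 2-fold for 3 factors, Pax3, Irx3 and Msx2, compared with 81% of all tested genes and 51.6% of those below 10 CPM. For the other 8 a change of more than 2-fold was within the error.

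**Figure D4:**
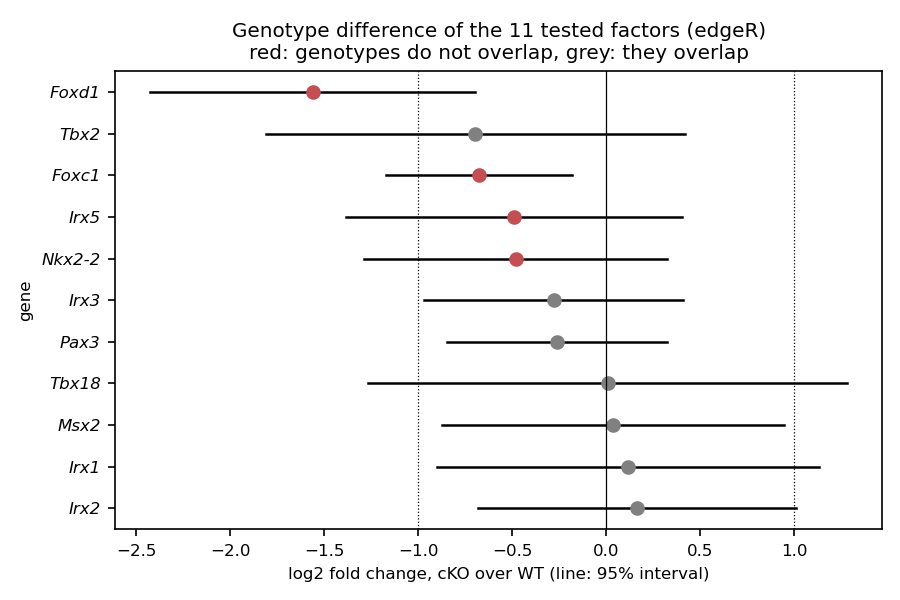
Log2 fold change of cKO over WT for the 11 tested factors (points) with 95% intervals from the edgeR fit (lines); red points mark genes whose genotypes do not overlap, and dotted lines mark a 2-fold change in each direction. Only the intervals of Foxd1 (-2.43 to -0.70) and Foxc1 (-1.17 to -0.18) leave out 0.

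Factors near silence were compared with all entries near silence. A mean below 0.1 CPM in WT was found for 21 factors, and 0 of them were at 0.5 CPM or more in all cKO libraries, as were 0 (0%) of all 6987 such entries. No entry of the table met this criterion, so the count says nothing particular about the factors. In the other direction 0 of the 18 factors below 0.1 CPM in cKO reached 0.5 CPM in each WT library, against 0.0145% of such entries. With silence set below 0.3 CPM the counts were again 0 in each direction, against 0.225% and 0.216% of entries. Counts in cKO but not in WT were seen for 5 factors, Gata2 (3 counts), Gata6 (7), Pax9 (3), Tbx4 (5) and Nkx2-5 (2). Counts in WT but not in cKO were seen for 7: Gata4, Foxa1, Foxa2, Isl2, Nkx2-1, Dlx2 and Dlx5, with 1 to 3 counts each. The share of all entries with counts in only 1 genotype was not computed. These 5 and 7 factors are therefore not read as switched on or off. Tbx5, Foxd3, Lhx8 and Hand2 had 0 counts in the 3 cKO libraries, where the limit of 3 counts over that group stands for 0.152 CPM. The upper end of a two-sided 95% interval for their pooled counts was 0.187 CPM, and both limits cover counting error only.

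LIM homeodomain factors, which specify motor neurons, pituitary and parts of the forebrain, were all untested, and as a family they had more counts in cKO (113) than in WT (61). By library the family sum was 2.72, 2.51 and 3.03 CPM in WT and 8.78, 5.71 and 2.31 CPM in cKO. The genotypes thus overlapped, and cKO replicate 3 was the lowest of all libraries. Lhx9, a factor of diencephalon, gonad and early cerebellar nuclear neurons, had 1, 3 and 0 counts in WT against 26, 3 and 3 in cKO. Lhx2, of forebrain and eye, had 1, 1 and 1 counts in WT against 15, 3 and 1 in cKO. In both genes a single library, cKO replicate 1, held most of the counts (72.2% of those of Lhx9 and 68.2% of those of Lhx2). The genotypes of Lhx9 and Lhx2 did not overlap in CPM, but cKO replicates 2 and 3 held only 1 to 3 counts of each. In the fit without a filter the log2 fold changes were 2.98 for Lhx9 (edgeR adjusted p = 0.0604) and 2.62 for Lhx2 (0.355). Meis2, a homeodomain gene from the fixed list of markers for neurons outside the cerebellar cortex, named after its values were seen, had 53 counts in cKO replicate 1 and 4 to 11 in the other libraries. The list as a whole did not peak in that library: its 16 genes summed to 64.8, 59.9 and 48.3 CPM in WT and to 54.3, 58.8 and 51.4 CPM in cKO, with Crh and Slc6a4 at 0. Of its 5 tested genes 4 had a negative log2 fold change (median -0.14), and 0 were called. Whether other neurons in that library gave these counts was not tested.

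Lhx3 and Lhx4, which act in the pituitary and in motor neurons, were spread more evenly. Lhx4 had 2, 6 and 19 counts in WT against 10, 19 and 7 in cKO, and Lhx3 had 3, 8 and 4 in WT against 7, 12 and 3 in cKO, so the genotypes of both overlapped. Isl1 had 7 of its 10 counts in WT replicate 1, Isl2 had 3 counts and Lhx6 had 3.

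Other low factors showed the same unevenness. Of 24 untested factors with at least 5 counts, 10 had 50% or more of them in a single library. WT replicate 1 was that library for Gata5, Isl1 and Sim1, cKO replicate 1 for Gata3, Tbx1, Lhx2 and Lhx9, cKO replicate 3 for Pax5 and Foxf2, and cKO replicate 2 for Gata6. WT replicates 2 and 3 were it for none. The share of all entries with as few counts that were this uneven was not computed, so the unevenness is not read as particular to the factors. Replicate 1 of each genotype also showed the most factors, with 39 of 56 detected in both, against 28 and 31 in WT replicates 2 and 3 and 27 and 34 in cKO replicates 2 and 3. Brought to the depth of the smallest library, the expected numbers were 38.6, 27.0 and 29.3 in WT and 38.5, 27 and 33.8 in cKO. Detection of all low entries by library was not computed, so the difference may belong to the libraries rather than to the factors. The replicate 1 library of each genotype stood apart from the rest in Xist as well, at 812 CPM (WT) and 831 CPM (cKO) against 1.39 to 4.46 CPM in the other 4. Xist coats and silences an X chromosome in females. With replicates 2 and 3 of each genotype only, 0 of 12 tested factors were called by edgeR, where 40 of 13233 tested genes were called. At an unadjusted p below 0.05 there were 2 of the 12 factors, where 1401 of the 13233 genes stood.

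GATA factors, of blood, heart and endoderm, were at the limit of detection, with 2 to 9 counts per gene. Their total was 29, of which WT had 11 and cKO 18. By library their sum was 1.66, 0 and 0 CPM in WT and 1.44, 0.617 and 0.616 CPM in cKO, so all WT counts came from replicate 1. Sim2, a relative of the hypothalamic factor Sim1, had 3, 14 and 9 counts in WT against 2, 2 and 0 in cKO, and its genotypes did not overlap. Its log2 fold change without a filter was -2.45 (edgeR adjusted p = 0.284). Twist1, a mesoderm and neural crest factor, had 2 counts in WT and 6 in cKO, Sim1 had 6 and 1, and Hand2, of heart and limb, had none. Otx2, a factor of forebrain, midbrain and choroid plexus, had 3, 3 and 4 counts in WT against 6, 4 and 6 in cKO, and its genotypes did not overlap either. Choroid plexus and ependyma markers summed to 5.85 to 15.0 CPM in WT and 8.18 to 13.2 CPM in cKO, with Sostdc1 and Tmem212 at 0. Pitx1, of hindlimb and pituitary, had 8, 8 and 5 counts in WT against 3, 1 and 5 in cKO, with overlap. Dlx1, a factor of forebrain interneurons, had 7 counts in WT and 9 in cKO, Dlx2 and Dlx5 had 2 each in WT, Msx1 had 2 in each genotype, and the kidney factors Six2 and Wt1 had 3 each in all.

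Counting tested and untested factors together, every cKO library was below every WT library in 6 of the 52 with a count (Foxc1, Foxc2, Foxd1, Nkx2-2, Irx5 and Sim2) and above in 4 (Tbx4, Lhx2, Lhx9 and Otx2). Over all entries with a count these shares were 6.36% and 6.2%. Mean levels were higher in cKO for 26 factors and lower for 26.

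Other developmental regulators on lists fixed for context were measured as well. Of 39 Hox genes 15 had no count and 0 passed the filter, and their sum was 0.728 to 2.42 CPM in WT and 1.23 to 3.02 CPM in cKO. Of 122 further developmental transcription factors 28 passed the filter, and the log2 fold change was above 0 in 14 and below 0 in 14 (median -0.04). EdgeR called 0 of the 28, with 6 at an unadjusted p below 0.05, where 1555 of all 13115 tested genes stood. First by p were Lhx1, a LIM factor of Purkinje cells (50.5, 62.1 and 55.2 CPM in WT against 41.6, 43.5 and 40.0 CPM in cKO, edgeR adjusted p = 0.0829), and Eomes (15.7, 6.13 and 8.98 against 21.6, 18.7 and 21.1 CPM, 0.0868). Of 12 tested PRC2 subunits Ezh1 alone was called. Among 15 granule lineage factors, Neurod1 rose (from 142 to 307 CPM, log2 fold change 1.11, edgeR adjusted p = 8.04e-10) and Neurod2 fell (from 86.3 to 63.8 CPM, -0.44, 0.0269).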

How the data were processed

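The authors deposited 1 table of raw, whole-number counts per gene, with a column for each of 6 libraries and NCBI gene identifiers. Per the submitters' processing notes, Subread and the mm10 genome were used; for the version, annotation, strand setting and multiply mapped reads, the answer is not given in the sources used here. Identifiers were matched to RefSeq GRCm38.p6 symbols (24570 of 24594 entries). The unmatched entry 100861531 held 26.0% of all counts and stayed in the library sizes. Genes were kept by filterByExpr (13115 genes), scaled by TMM and tested with robust quasi-likelihood fits of edgeR 4.0.16 in R 4.3.3, with genotype as the only term, all genes adjusted together (Benjamini-Hochberg), and a gene was called below 0.05. CPM are counts per 1000000 of TMM-scaled library size. Factors below the filter are given as raw counts and CPM. Alternatives were DESeq2 1.42.0, limma-voom (limma 3.58.1), other scalings and filters, a replicate block and leaving out each library; the comparison of replicates 2 and 3 only, and sums without Foxc1 and Foxd1, were chosen after seeing the data. Within a genotype, no 2 libraries agreed within sampling noise (chi-square over its degrees of freedom, 4.03 to 5.00). The code was tested on simulated counts. Each tested factor is named with its values, as are the 10 untested factors with the most counts and any with 10 or more counts in 1 library; the rest are given by counts. Beside Ezh1, up to 4 called genes of each context list are named, or the 2 of smallest p. The members and lists were chosen with earlier results of these data known.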

Additional observations from a re-analysis of the deposited data

How the results depend on the processing

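The number of called genes over the whole table was 77 and ranged from 13 (without WT replicate 3) to 249 (without WT replicate 1) when single libraries were left out. It was 277 without a filter, 42 by limma-voom and 40 with replicates 2 and 3 only; the cause was not tested. With the replicate number as a block it was 90. The numbers did not pair the libraries throughout. Deviations of same-numbered libraries correlated at 0.15, 0.01 and -0.04, and WT replicates 2 and 3 correlated better with another number. The 0.15 of the 2 replicate 1 libraries was the highest of all pairs across genotypes. These 2 libraries also shared the high Xist level (812 CPM in WT and 831 CPM in cKO), so replicate 1 differed from the other numbers in both genotypes. Among the factors described here the count of calls was 0 and became 1, Foxd1, without a filter, and 0 to 1 when a library was left out (1 without WT replicate 1). The block changed no call of a factor. The counts of factors gained or lost were 0 under all 11 alternatives run for them, and the summed ratio of 0.827 over the 56 factors ranged from 0.780 to 0.899 (it was 0.934 for the 54 factors other than Foxc1 and Foxd1). Tbx2 ranged from -1.52 to -0.28 without single libraries. Directions that turned belonged to factors near no change: Tbx18 was at -0.043 with the block, -0.43 by limma-voom, -0.48 with replicates 2 and 3 only and -0.52 to 0.53 without single libraries; Irx1 was at -0.082 by limma-voom and -0.50 to 0.48, Irx2 at -0.044 to 0.38 and Msx2 at -0.23 to 0.40 without single libraries. DESeq2 gave the factors no adjusted p and so no verdict on calls. Depth limits the rest: 32 factors had 10 or fewer counts in 6 libraries together, and no fold change is given for them.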

Other observations

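Several of the factors lie side by side in the genome, in 12 pairs within 1 Mb, and neighbours often differed widely in level. Foxc1 had 334 counts over all libraries and Foxf2, 175 kb away on chromosome 13, had 7. Nkx2-2 had 117 counts and Pax1, 166 kb away on chromosome 2, had 2. Tbx2 had 82 counts and Tbx4, 44.4 kb away on chromosome 11, had 5. Of the 4 Iroquois factors described, neighbours were closer in count, with 174 counts for Irx3 and 87 for Irx5 (556 kb apart), and 79 for Irx1 and 105 for Irx2 (661 kb apart). Of the closest pair, Dlx1 and Dlx2 at 9.43 kb, the former had 16 counts and the latter 2. These are raw counts, not scaled by length.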
